A study of Mus musculus with 4 samples.

Results

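Integrins are adhesion receptors built from 1 alpha and 1 beta chain, and 10 chain genes of blood cells were followed here, 5 alpha (Itga2b, Itga4, Itga6, Itgal and Itgam) and 5 beta (Itgb1, Itgb2, Itgb2l, Itgb3 and Itgb7). Each was taken by its symbol from the 17956 rows of the deposited table that describe a single locus, so the members are 10 of 17956 loci. RNA had been sequenced from sorted bone-marrow cells of C57BL/6 mice, in 2 libraries labelled Asxl1-/- (KO) and 2 labelled wild type (WT). ASXL1 is a chromatin regulator, and the study set transcript changes beside binding sites of ASXL1 and of the chromatid-tethering complex cohesin. The cells were Lin-Kit+, the marrow fraction without surface markers of mature lineages and with the Kit receptor, which holds stem and progenitor cells, and 2000000 cells went into a library. The sources used here do not state the age of the mice, the antibodies of the lineage sort, any Cre driver or whether replicates came from separate animals, so p-values measure the spread between libraries, which may be technical.

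Integrins bind matrix proteins or receptors on other cells, and they switch between a resting and a ligand-binding shape under control of proteins such as talin and kindlin that attach to the beta chain. The Itgb2 chain pairs with Itgal to form LFA-1 and with Itgam to form Mac-1, the leukocyte integrins that carry neutrophils and lymphocytes out of blood vessels. Itga2b pairs with Itgb3 to form the fibrinogen receptor of platelets, and Itga4 and Itga6 with Itgb1 form receptors that hold progenitors in the marrow.

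The libraries held 76688583 to 83586916 recovered reads in KO and 46597871 to 49764454 in WT, and the member with the fewest reads in any library, Itgb3, had 1090, so counting error was at most 3.03% of a value (1 SD). Values are normalised read counts: reads times a factor that the authors applied to each whole library. Asxl1 stood at 146 and 135 in KO libraries, against 9742 and 9472 in WT libraries, which matched the labels. The sorted fraction showed Kit (merged locus AK047175+Kit) at 18483 and 18889 in KO, against 17739 and 16149 in WT. The locus that holds the progenitor antigen gene Cd34 with microRNA genes fell to 6537 ± 10.6 in KO, against 11591 ± 589 in WT (SD, n = 2 each; log2 fold change -0.83 ± 0.05, limma adjusted p = 0.00131). Transcripts of lineage-restricted cells were present too, among them Cd79a, a chain of the B-cell receptor complex, at 11475 and 7385 in KO and at 16820 and 16641 in WT, so the label's lineage depletion did not leave B-lineage RNA at 0.

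Of the 10 members 5 rose without Asxl1 and 0 fell. Itgb2l, Itgb2, Itgam, Itgb3 and Itga2b were the 5, with means 1.245 to 2.05 times those of WT, and every one of the 10 had passed the filter on low values. Without WT replicate 1 the count was 3, as Itga2b and Itgb3 were lost, and it was 869 over all tested loci. Across all 13764 tested loci 20.9% were called, 11.9% higher and 8.97% lower (limma on log2(value + 1), Benjamini-Hochberg adjusted p below 0.05), and with upper-quartile scaling 42.6% of all calls were higher in place of 57.0%. With limma on the deposited scale no member was lower at an unadjusted p below 0.05, although Itga4 was lower at an unadjusted p of 0.0226 with upper-quartile scaling and of 0.0414 with DESeq2. None passed as lower after adjustment with edgeR or DESeq2, each of which called 6 members higher. Over all 13764 tested loci edgeR called 2839 (20.6%), 1619 of them higher, and DESeq2 called 3413, 1915 of them higher. The median log2 fold change of the 10 members was 0.24, against -0.01 over all tested loci. Both KO libraries lay above both WT libraries in 8 members and below in 1, Itga4, while 66.1% of all tested loci had groups apart, 32.5% with KO above and 33.6% with KO below. In bulk RNA, fewer cells of a type and less RNA per cell cannot be told apart.

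**Figure D1:**
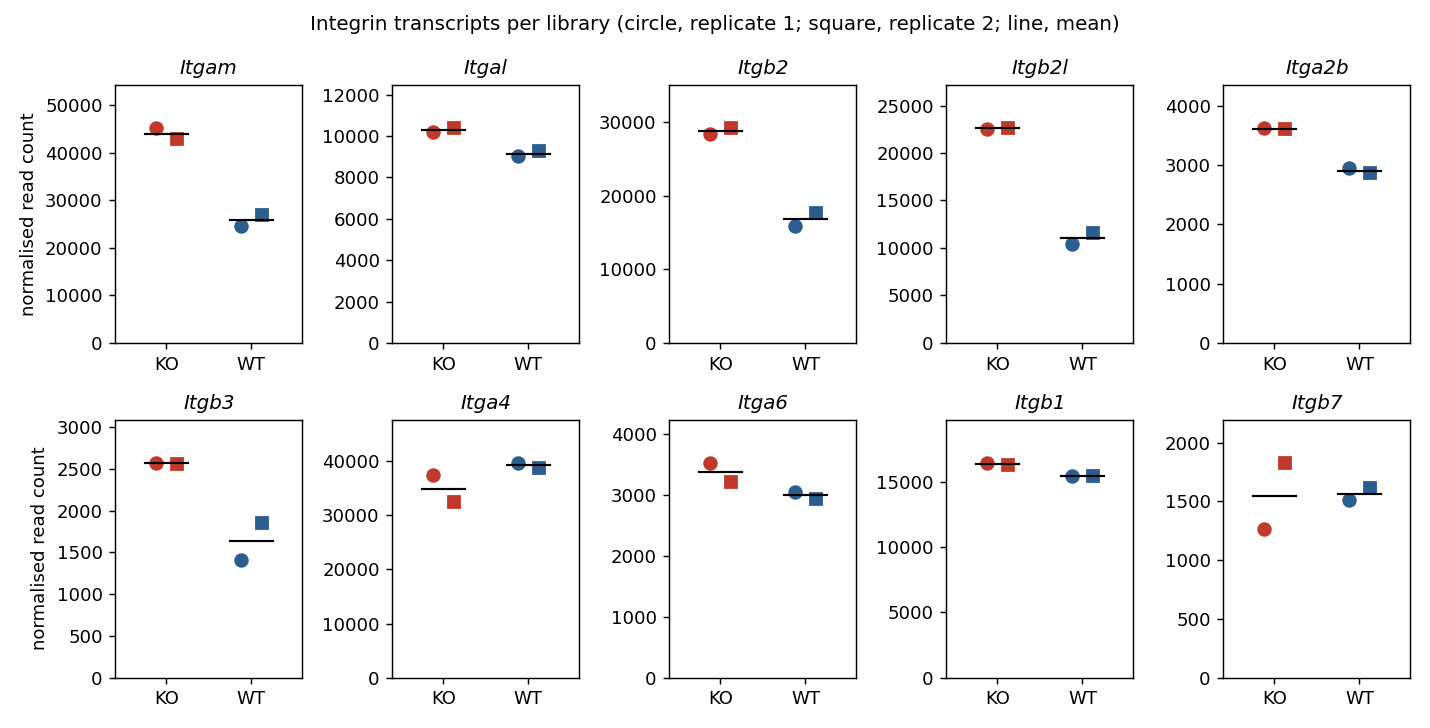
Normalised read counts (linear axes from 0) of the 10 integrin genes in each of 2 KO and 2 WT libraries, 1 panel per gene; circles are replicate 1, squares replicate 2 and lines the group means. The groups are widely apart for Itgam, Itgb2 and Itgb2l, close for Itgb1 and overlapping for Itgb7.

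The leukocyte family around Itgb2 gave the largest changes. Itgam, the alpha chain of Mac-1 (CD11b), which binds complement fragments and is itself often used to mark mature myeloid cells in a lineage sort, had 45203 and 42795 in KO libraries, against 24640 and 26902 in WT libraries. The lower KO library was far above the higher WT library. Itgam rose by 0.77 ± 0.06 on the log2 scale (SE, n = 2 each; adjusted p = 0.00172). Set by replicate number, the differences were 0.88 and 0.67. In the GENCODE M21 transcripts 66.3% of the 50-base windows of Itgam also occur in Gm49368, a gene model that overlaps it, and how the authors counted such reads is unknown.

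Itgb2, the common beta chain (CD18) without which neither LFA-1 nor Mac-1 reaches the surface, had 28410 and 29200 in KO libraries, against 15922 and 17625 in WT libraries. The groups did not overlap, and the WT libraries differed from each other more than the KO libraries did. Its log2 fold change of 0.78 ± 0.06 (adjusted p = 0.00172) was close to that of Itgam, and by replicate number the differences were 0.84 and 0.73.

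Itgb2l encodes a beta-chain relative of Itgb2 known in mice as pactolus and described in maturing neutrophils. It had 22556 and 22640 in KO libraries, against 10461 and 11538 in WT libraries. Both KO libraries were about alike and both WT libraries clearly below. This was the member with the largest change, 1.04 ± 0.06 on the log2 scale (adjusted p = 0.00117), or 2.05 times the WT mean, and 95.8% of all tested loci had a lower fold change. Despite the related proteins, exact 50-base windows shared between annotated transcripts of Itgb2l and any other gene numbered 0, and Itgb2 shared 34 windows with other genes and none with another member. Reads of that length could thus be told apart if they matched without error.

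Itgal, the alpha chain of LFA-1 (CD11a), which binds ICAM proteins and is carried by most white cells, had 10190 and 10390 in KO libraries, against 9026 and 9275 in WT libraries. The groups did not overlap, but the difference was small. Its difference came to 0.17 ± 0.05 on the log2 scale with a 95% interval of 0.05 to 0.28, and the adjusted p of 0.0521 missed the threshold. The call depended on the method: edgeR gave an adjusted p of 0.0341, DESeq2 0.0216 and a pseudocount of 10 gave 0.0498. Limma missed the threshold with the replicate block (adjusted p = 0.0508), TMM scaling (0.0520), no filter (0.0672) and upper-quartile scaling (0.117).

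The 4 leukocyte genes lie on separate stretches of the mm9 genome as the deposited table gives them. Itgal (chromosome 7, 134439861 to 134477412) and Itgam (chromosome 7, 135206153 to 135271674) share a chromosome, Itgb2 is on chromosome 10 (76993092 to 77028419) and Itgb2l on chromosome 16 (96643904 to 96665221).

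The start regions of the called members that the RefSeq promoter table (GRCm38.p6) covers are printed because these genes moved in the same direction. Each run is the 250 bases before the annotated start on the gene's strand, 5′ to 3′, with capitals for GAGGAA on either strand, the core that PU.1 and other ETS factors bind (TTCCTC where it lies on the opposite strand). Of the 10 members 6 had an entry.
Itgam, chr7:128062390-128062639, plus strand: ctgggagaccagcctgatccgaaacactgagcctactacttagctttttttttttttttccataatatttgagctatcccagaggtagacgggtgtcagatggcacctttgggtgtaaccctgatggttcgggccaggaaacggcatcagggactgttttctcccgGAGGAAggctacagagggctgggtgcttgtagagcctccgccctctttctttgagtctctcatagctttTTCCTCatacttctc
Itgb2l, chr16:96443615-96443864, minus strand: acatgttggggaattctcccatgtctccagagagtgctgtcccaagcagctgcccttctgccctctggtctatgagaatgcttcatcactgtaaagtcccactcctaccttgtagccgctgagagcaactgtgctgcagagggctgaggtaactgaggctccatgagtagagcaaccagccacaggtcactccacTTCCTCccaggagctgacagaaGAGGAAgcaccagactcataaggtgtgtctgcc
Itga2b, chr11:102469884-102470133, minus strand: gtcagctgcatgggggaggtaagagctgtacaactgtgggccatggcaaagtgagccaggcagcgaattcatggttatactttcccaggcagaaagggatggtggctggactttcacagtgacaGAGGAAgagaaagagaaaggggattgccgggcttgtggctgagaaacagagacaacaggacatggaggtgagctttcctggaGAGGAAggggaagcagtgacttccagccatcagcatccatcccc
Each of these 3 held 2 matches, Itgb1 held 1, and Itga4 and Itgb7 held 0. Of 32851 promoters of that length 23.3% held GAGGAA. The GATA core AGATAA, searched the same way, was in none of the 6 windows and in 9.99% of all. The motifs do not overlap each other, and a match is only a match of letters.

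Both chains of the platelet receptor rose. Itga2b (merged with an alias as Itga2b+GPalpha IIb, chromosome 11, 102314610 to 102331197), the alpha chain CD41 that marks megakaryocytes and some early progenitors, had 3624 and 3602 in KO libraries, against 2943 and 2860 in WT libraries. Replicates were close in both groups and the groups stood apart. Its rise was small, 0.32 ± 0.06 on the log2 scale (adjusted p = 0.0167), and the call was lost without WT replicate 1 (adjusted p = 0.0944) or WT replicate 2 (0.114).

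Itgb3 (chromosome 11, 104469313 to 104531785), the beta chain CD61 of the fibrinogen receptor, had 2573 and 2560 in KO libraries, against 1412 and 1854 in WT libraries. The KO libraries were alike, whereas WT replicate 2 was well above WT replicate 1. Itgb3 rose by 0.67 ± 0.13 on the log2 scale (adjusted p = 0.0207), at 0.87 and 0.47 by replicate number. Without WT replicate 1 it was 0.47 and lost its call (adjusted p = 0.0561).

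Chains that pair through Itgb1 and Itgb7 did not pass the threshold. Itgb1 (chromosome 8, 131209553 to 131257479), the beta chain CD29 shared by most matrix receptors, had 16449 and 16238 in KO libraries, against 15453 and 15412 in WT libraries. The groups stood apart by little, at 0.08 ± 0.04 on the log2 scale (adjusted p = 0.213; 95% interval -0.02 to 0.19).

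Itga4 (CD49d) forms VLA-4 with Itgb1 and the gut-homing receptor with Itgb7, and its locus is merged with Cerkl (chromosome 2, 79095582 to 79269145), so reads of these neighbours cannot be divided. The locus had 37407 and 32509 in KO libraries, against 39746 and 38739 in WT libraries. It was the only member with both KO libraries below both WT libraries, at a log2 fold change of -0.17 ± 0.07 (adjusted p = 0.142; 95% interval -0.35 to 0.01). Without KO replicate 1 the value was -0.27 and passed the threshold (adjusted p = 0.00989), and without KO replicate 2 it was -0.069 (adjusted p = 0.343).

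Itga6 (chromosome 2, 71625139 to 71694815), the laminin receptor chain CD49f that is carried by stem cells and megakaryocytes, had 3533 and 3219 in KO libraries, against 3049 and 2943 in WT libraries. The groups did not overlap and the log2 fold change of 0.17 ± 0.07 missed the threshold (adjusted p = 0.135; 95% interval -0.0014 to 0.34). Without KO replicate 1 it was 0.104 (adjusted p = 0.331). Of its 50-base windows 5.31% occur in other gene models too.

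Itgb7 (chromosome 15, 102046425 to 102062366), the beta chain of the gut-homing receptor, was the member whose replicates differed most: it had 1263 and 1829 in KO libraries, against 1514 and 1617 in WT libraries. The KO libraries enclosed both WT libraries, and KO over WT came to -0.04 ± 0.17 on the log2 scale (adjusted p = 0.883; 95% interval -0.46 to 0.38), at -0.26 and 0.18 by replicate number.

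**Figure D2:**
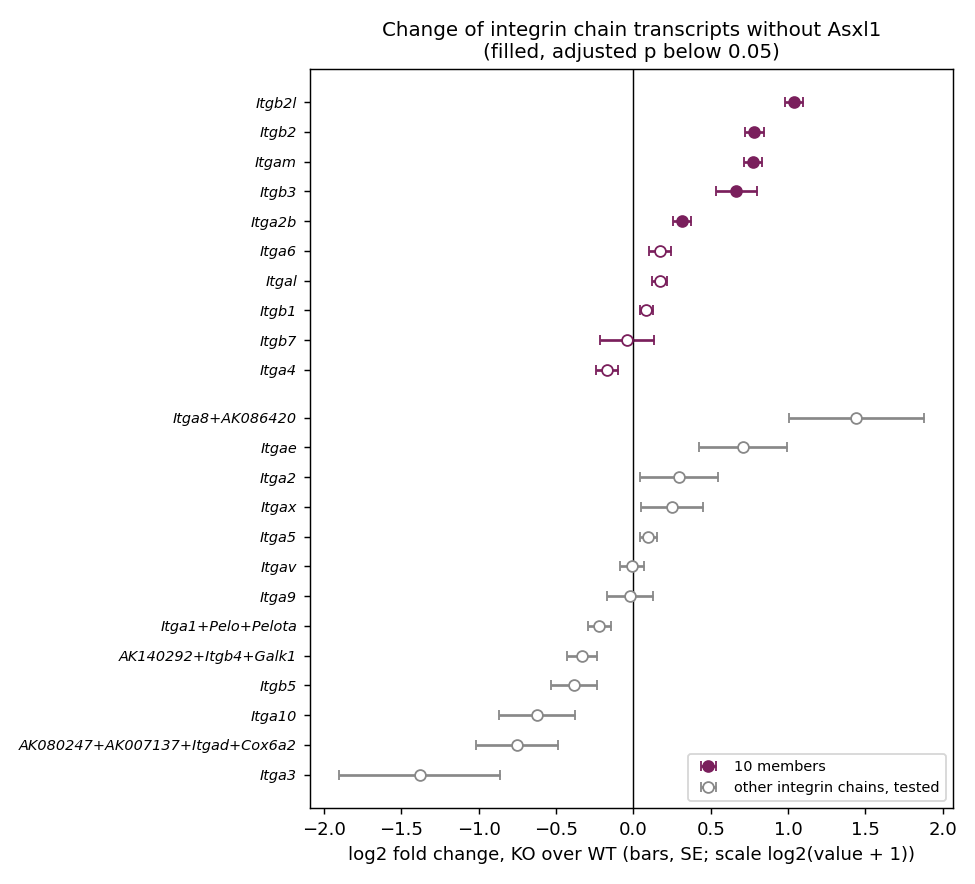
Log2 fold change of KO over WT with its SE for the 10 members (purple, above) and the 13 tested loci of the other integrin chains (grey, below), each part sorted by value; filled points passed an adjusted p of 0.05. The 5 filled points are Itgb2l, Itgb2, Itgam, Itgb3 and Itga2b, and no grey point is filled.

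Levels of different genes were compared per kilobase of exon, with lengths from GENCODE M21, an annotation of a later build than the one the reads were placed on. In KO the order was Itgb2 at 9699, Itgam at 8932, Itgb2l at 7790, Itgb1 at 4284, Itga4 at 3579, Itgal at 1613, Itga2b at 1051, Itga6 at 774, Itgb7 at 576 and Itgb3 at 444 normalised reads per exon kilobase, and no neighbours in that order overlapped in their 2 libraries. In WT it was Itgb2 at 5648, Itgam at 5232, Itgb1 at 4045, Itga4 at 4018, Itgb2l at 3792, Itgal at 1434, Itga2b at 844, Itga6 at 687, Itgb7 at 584 and Itgb3 at 282. There Itgb2 overlapped Itgam, Itgb1 overlapped Itga4 and Itga4 overlapped Itgb2l. On this per-length level, Itgb2l moved to the third place in KO, against the fifth in WT. With the exons of Cerkl counted in, the Itga4 locus was at 3104 in KO and 3484 in WT. That is below Itgb2l in WT, so the place of Itgb2l there depends on the length used for the Itga4 locus.

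**Figure D3:**
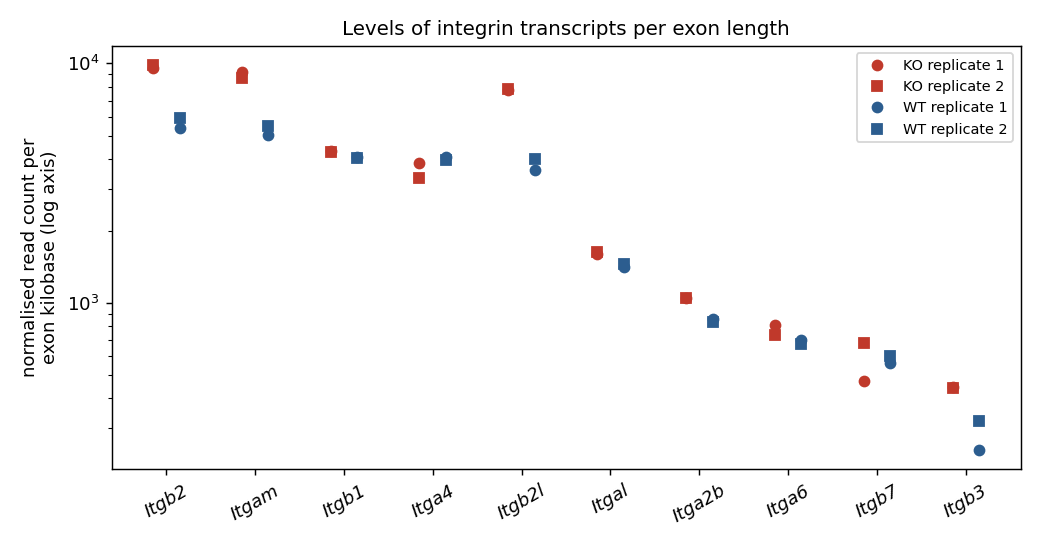
Normalised read count per exon kilobase (log axis) of each member in 2 KO and 2 WT libraries, ordered by the WT mean. Itgb2, Itgam and Itgb2l stand above the other members in KO, whereas Itgb2l lies with Itgb1 and Itga4 in WT.

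Ratios within a library show how chains, partners or not, moved relative to each other, free of the scaling between libraries. Of 9 ratios computed, the one of Itgam to Itgb2, the Mac-1 chains, was 0.959 and 0.884 in KO libraries, against 0.933 and 0.920 in WT libraries, and the groups overlapped. The ratio of Itgal to Itgb2, the LFA-1 chains, was 0.167 and 0.166 in KO libraries, against 0.264 and 0.245 in WT libraries. Transcripts of the LFA-1 alpha chain were thus fewer per Itgb2 transcript in both KO libraries.

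Itgb2l to Itgb2, both beta chains and so not an alpha and beta pair, stood at 0.813 and 0.794 in KO libraries, against 0.673 and 0.670 in WT libraries. The platelet pair, Itga2b to Itgb3, was at 2.37 in both KO libraries, against 3.51 and 2.596 in WT libraries. The KO libraries were lower in that ratio, and the WT libraries lay far apart. Itga4 to Itgb1 was 0.888 and 0.782 in KO libraries, against 1.005 and 0.982 in WT libraries. With 2 libraries per group an exact two-sided permutation test cannot go below 0.333, which was the p of each of these ratios except Itgam to Itgb2 (p = 1.0), so none can be called.

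**Figure D4:**
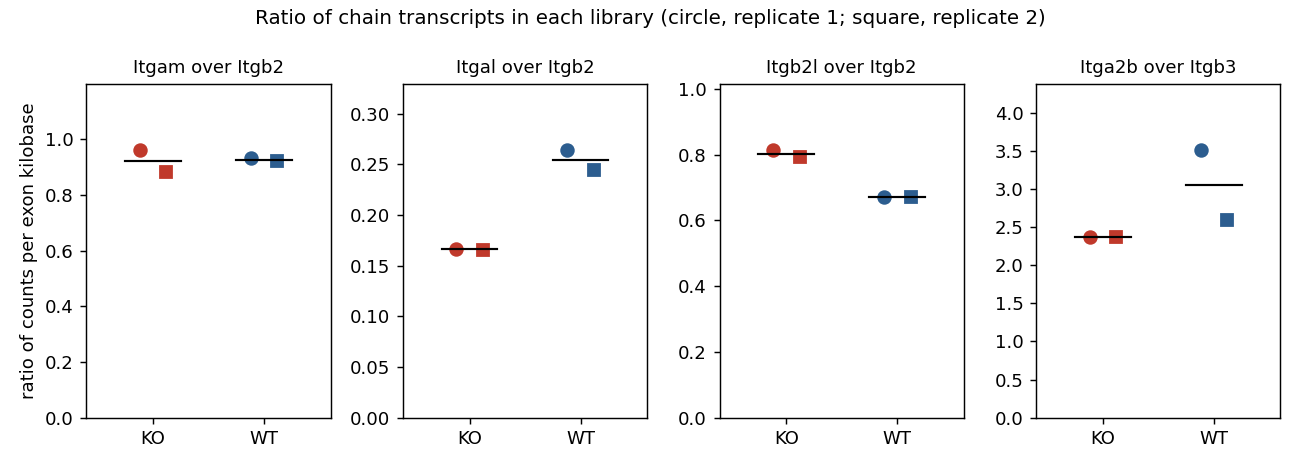
Ratio of normalised reads per exon kilobase between chain genes in each KO and WT library (linear axes from 0, lines are group means). Itgam over Itgb2 overlaps between the groups, Itgal over Itgb2 and Itga2b over Itgb3 are lower in KO and Itgb2l over Itgb2 is higher.

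The members with the largest called changes were set beside the loci most like them, taken as those with the smallest maximal difference over the 4 libraries on the log2(value + 1) scale after centring on the WT mean. For Itgb2l these were AK045519 (0.03), Nfil3 (0.03), a transcription factor gene, and Pi16 (0.04), and 18 of 13763 loci were within 0.1. For Itgb2 they were 1100001G20Rik (0.03), the immediate-early gene Ier2 (0.04) and Wipi1 (0.04), with 54 loci within 0.1. The 4 libraries of 1 contrast distinguish few patterns, and the likeness says nothing of function.

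Integrin chains outside the 10 showed no call. Of 17 such genes 13 loci were tested, and 0 passed in either direction with limma, where 20.9% of all tested loci were called. At an unadjusted limma p below 0.05, 2 were higher and 6 lower, and the share of all loci at that threshold was not counted. With edgeR none passed and with DESeq2 1 was lower. Their median log2 fold change was -0.02. The smallest p-values were those of Itga8+AK086420, a chain better known from smooth muscle and kidney, with 84.1 and 111 in KO libraries, against 23.3 and 52.4 in WT libraries (1.44 ± 0.44, adjusted p = 0.065), and of the merged locus AK140292+Itgb4+Galk1, with 1715 and 1689 in KO libraries, against 2329 and 1973 in WT libraries (-0.33 ± 0.10, adjusted p = 0.0585). Read counts of the merged locus cannot be assigned to the laminin receptor chain Itgb4 rather than its neighbours.

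With limma on the deposited scale, many genes of proteins that switch integrins on or carry their signal rose and none fell. Of 31 tested loci in a list of 35 activators and adaptors, 14 rose (45.2%) and 0 fell, with a median log2 fold change of 0.19. Over all tested loci 11.9% were called higher and 8.97% lower. At an unadjusted limma p below 0.05, 2 were lower, a threshold whose share of all loci was not counted. After adjustment 0 were lower with edgeR, and 1 with each of DESeq2, upper-quartile scaling and the replicate block. Without WT replicate 1 or without WT replicate 2 there were 9 calls, all higher. The largest change was in Fgr, a SRC-family kinase of myeloid cells that acts below the leukocyte integrins.

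Fgr had 6324 and 7082 in KO libraries, against 3560 and 3678 in WT libraries (0.89 ± 0.07, adjusted p = 0.00182). The KO libraries were well clear of the WT libraries. Fyb+AK133228, which holds the gene of the adaptor ADAP, rose by 0.60 ± 0.07 (adjusted p = 0.00412), and Vcl, the talin-binding protein vinculin, by 0.56 ± 0.05 (adjusted p = 0.00246).

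Of 20 tested loci in a list of 26 integrin ligand genes, 2 rose and 2 fell, and the 20.0% called was close to the 20.9% of all tested loci. The median log2 fold change was 0.32. Thbs1, the matrix protein thrombospondin, had 42906 and 30383 in KO libraries, against 3326 and 5243 in WT libraries (3.11 ± 0.24, adjusted p = 0.00175). The merged locus that holds Adam8, a membrane protease, with AK040659, 6430531B16Rik and AK078239 (1.57 ± 0.17, adjusted p = 0.00389) rose as well. Icam2, which binds LFA-1, had 1686 and 1579 in KO libraries, against 2070 and 2045 in WT libraries (-0.33 ± 0.07, adjusted p = 0.0282), and the basement-membrane collagen gene Col4a1 fell by 0.95 (adjusted p = 0.0179). Both lower calls were lost without WT replicate 1 or WT replicate 2, which left 2 calls, and 8 ligand loci were called without KO replicate 1 or KO replicate 2.

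Marker transcripts of several cell types moved beside the members, and their part in the integrin results was not tested. The counts of all marker lists stand beside 11.9% of all tested loci called higher and 8.97% called lower. Of 11 tested neutrophil markers 10 rose (90.9%), with a median of 0.93, and their summed level was 2184094 to 2348689 in KO libraries, against 1186442 to 1328818 in WT libraries. The log2 ratio of the summed levels was 0.85, and it was 0.86 for megakaryocyte and platelet markers and 0.88 for erythroid markers. It was 0.11 for monocyte and macrophage markers and -0.63 for mast cell and basophil markers. For B-cell markers it was -0.60 and for T and NK cell markers -0.80. The median log2 fold change of single loci was lower than the summed ratio for megakaryocyte and platelet markers (0.48) and erythroid markers (0.51). Itgam was at 0.77, Itgb2 at 0.78 and Itgb2l at 1.04. Camp, a granule peptide gene, rose by 1.11 ± 0.13 (adjusted p = 0.00444) and Cd177, a neutrophil surface gene, by 0.95 ± 0.07 (adjusted p = 0.00152). No neutrophil marker in the table was at 0 in any group.

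Beside Itga2b and Itgb3, 2 of 12 megakaryocyte and platelet markers were called, both higher, a share of 16.7% where 11.9% of all tested loci were called higher. The median of the 12 was 0.48, and their summed level was 26101 to 27818 in KO libraries, against 14599 to 15193 in WT libraries. The 2 were the merged loci Selp+F5+AK149537 (1.08 ± 0.06, adjusted p = 0.00117) and Sept5+Cdcrel-1+Gp1bb (1.03 ± 0.06, adjusted p = 0.00125), each shared with neighbouring genes. None of the 12 was at 0.

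In the monocyte and macrophage list, whose cells also carry Itgam, 2 of 10 markers rose and 4 fell. Over all tested loci 11.9% were called higher and 8.97% lower, the shares beside which the other counts here stand too. Cd14 rose by 1.66 ± 0.24 (adjusted p = 0.00874) and Emr1, the F4/80 gene, by 1.003 ± 0.12 (adjusted p = 0.00517). The complement genes C1qa (-0.98 ± 0.26, adjusted p = 0.0468) and C1qb (-0.97 ± 0.20, adjusted p = 0.0232) fell. Both calls were lost without either WT library, and that of C1qa also without KO replicate 2 (adjusted p = 0.0962), with edgeR (0.0506) and with no filter (0.066). The list stood at a summed level of 44898 to 46297 in KO libraries, against 41735 to 42985 in WT libraries. Its median log2 fold change went the other way, at -0.39. Both KO libraries were below both WT libraries in 6 of the 10 markers and above in 3. In lists of lymphoid and basophil cells, which also carry LFA-1 and VLA-4, no marker was called higher. The levels that follow are sums over all found loci of a list, called or not. Of 8 B-cell markers 3 fell, and the list summed to 39999 to 56817 in KO libraries, against 73052 to 73995 in WT libraries. Of 10 T and NK cell markers 4 fell. That list summed to 1277 to 1429 in KO libraries, against 2326 to 2375 in WT libraries. Of 7 tested mast cell and basophil markers 5 fell. With the untested locus, that list summed to 5787 to 6176 in KO libraries, against 9154 to 9414 in WT libraries. Of 7 erythroid markers 4 rose, and the list summed to 113066 to 127450 in KO libraries, against 63231 to 67692 in WT libraries. In these lists Mcpt4, a mast cell protease gene, was the marker listed at 0 in both WT libraries.

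**Figure D5:**
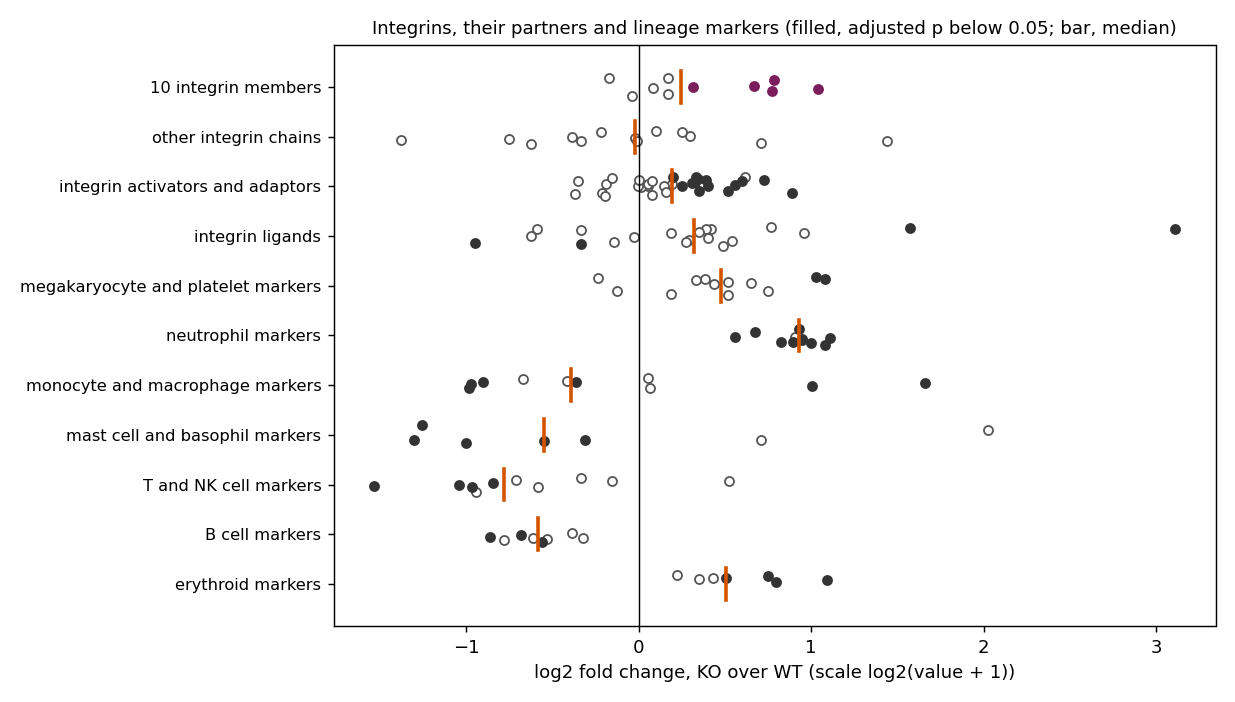
Log2 fold change of KO over WT for each tested locus of the 10 members, of 3 lists of related genes and of 7 lists of lineage markers; filled points passed an adjusted p of 0.05 and the orange bar is the median of a list. Neutrophil markers lie between 0.56 and 1.11, the range that also holds Itgam, Itgb2, Itgb2l and Itgb3. Loci of other lists lie in that range too, among them Fgr at 0.89 and Selp+F5+AK149537 at 1.08.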

How the data were processed

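Transcripts were measured by RNA sequencing in 2 Asxl1-/- (KO) and 2 wild-type (WT) libraries of Lin-Kit+ marrow cells. Alignment used STAR 2.3.1t on mm9, per the submitters' processing notes; the sources used here do not name the counter, the gene annotation, strand handling or scaling tool. The deposited values are a signal: counts of reads, each library scaled by the authors with its own factor. Dividing by the smallest value of a library gave whole numbers for 100% of its loci (tolerance 0.001 read). A read stood for 0.758 and 0.825 in KO and 1.30 and 1.22 in WT, which gave 83586916 and 76688583 recovered reads in KO and 46597871 and 49764454 in WT. Counting errors cover counting only.

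The 13764 single loci that reached 10 in 2 or more libraries were tested with limma 3.58.1 (R 4.3.3, mean-variance trend, genotype as the only term) on log2(value + 1), which understates changes of low loci. P-values were adjusted by Benjamini-Hochberg over all tested loci. On the recovered reads edgeR 4.0.16 (quasi-likelihood, TMM) called 2839 loci, against 2875 with limma; DESeq2 1.42.0, other scalings, a pseudocount of 10, no filter, a replicate block and leaving out each library were further alternatives. The 4893 rows that join neighbouring loci were left out. The members and the gene lists were chosen with earlier results of these data known. Fga, Fgg, Ly6g and Hba-a1 were not analysed here, and some list members that the rule names are not reported here. Named genes were all members, Asxl1, called loci of the other integrin chains and from every list at most 4 called loci by size of change (without any call, 2 loci by p), and for the 2 most changed members the 3 most similar loci; marker lists are given mainly by their counts. The replicate numbers are in the labels, and nothing there says that they pair the libraries.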

Additional observations from a re-analysis of the deposited data

Results flagged for a closer look

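Rows that join neighbouring loci lie outside the comparisons, and 8 of them name a member. In 2 of these each KO library had more than 3 reads and both KO libraries were above both WT libraries. The row Igsf5+Pcp4,Itgb2l held 36 and 28 reads in KO libraries, against 1 and 3 in WT libraries, a mean normalised value of 25.2 in KO and 2.48 in WT. The ratio of the read rates on the deposited scale was 10.1 (95% exact interval 3.74 to 38.1, counting error only). These reads equal 0.111% of the Itgb2l value in KO and 0.0225% in WT. The row Itga6,BC024571 held a mean of 207 in KO and 179 in WT, or 6.12% and 5.98% of the Itga6 value, with a ratio of 1.16 (95% exact interval 1.001 to 1.34). Both rows were picked because their KO libraries lay above their WT libraries. The intervals come from the same reads and leave out the spread between libraries, so they are not tests of a difference. No explanation of either row was tested.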

How the results depend on the processing

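Itgam, Itgb2 and Itgb2l kept their direction and call under every alternative run, and without 1 library their log2 fold changes were 0.71 to 0.84, 0.71 to 0.86 and 0.97 to 1.11. Leaving out 1 library gave 3 to 6 called members, 869 to 3233 called loci, 0 to 1 other integrin chains, 9 to 16 activators and adaptors and 2 to 8 ligands. In such fits Itga2b ranged from 0.296 to 0.337, Itga4 from -0.27 to -0.069, Itga6 from 0.104 to 0.238, Itgb3 from 0.47 to 0.86 and Itgb7 from -0.31 to 0.23. Itgb7, which was never called, was positive without WT replicate 2 (0.0056) and without KO replicate 1 (0.23). Itgal was 0.168 with edgeR, 0.173 with DESeq2 and 0.169 with a pseudocount of 10, each past the threshold. It missed the threshold with TMM scaling, no filter, the replicate block and upper-quartile scaling, where it was 0.116. Other integrin chains numbered 2 calls with upper-quartile scaling, 1 with DESeq2 and 2 with the replicate block (Itga8+AK086420 higher and AK140292+Itgb4+Galk1 lower). The replicate block gave 3439 called loci and changed the call of no member, with Itga4 lower at an unadjusted limma p of 0.0229. Same-numbered libraries deviated from their group means with a correlation of 0.25 over tested loci, in 2 pairs. Adding the joined rows, chosen after seeing the data, changed no member's call. The cause of these differences was not tested, except that leaving out a library leaves 3 libraries, where the lone one is assumed to vary like the other group. Of 36 other named loci 15 lost their call without WT replicate 1 and 12 without WT replicate 2. With 2 libraries per group, small changes such as those of Itgal and Itga2b sit near the threshold.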
